A study of Rattus norvegicus with 15 samples.

Results

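Of the 15 mammary gland arrays of the study, 3 carried far more skeletal muscle transcript than the others of their treatment groups: pregnancy replicates 7 and 9 (P7 and P9) and hormone replicate 4 (H4). They were set beside the 7 muscle-poor arrays of the same 2 groups, P1, P2, P3, H1, H2, H3 and H5. The 5 controls, C1, C2, C4, C5 and C6, were not used to choose them. The choice rested on the level of 4 genes: Acta1 (the actin of skeletal muscle thin filaments), Ckm (muscle creatine kinase), Myh4 (the fast type IIB myosin heavy chain) and Tnnt3 (fast troponin T). Since expression itself divided the arrays, differences between the 2 sets are given as a description, with a standard error and counts past a threshold but no p-value for a gene. Passing that threshold says how large a difference was beside the spread between arrays, and is no test, since the choice fixed the direction of muscle genes. Whether genes follow muscle transcript was tested in the controls.

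All rats were female Lewis rats, 3 months old, split into 3 groups of 5. Each rat gave RNA of its left inguinal mammary gland to 1 array. Control rats received sham capsules that held cellulose matrix alone. Pregnancy rats had such capsules too, carried a pregnancy to term (21 to 23 days) and lost their pups within 4 to 6 hours, before suckling. Hormone rats bore 2 silastic capsules for 21 days, with 100 µg of ethynyl estradiol in one and 30 mg of megesterol acetate, a progestin, in the other. After a rest of about 49 days every rat was killed in metestrus. Values are log2 expression per probe set (a group of short probes for 1 transcript), on which 1 unit is a doubling. Between 65.3 and 68.4% of probe sets per array were called present, that is, detected above background, and array medians lay between 7.70 and 7.77. Genes of the gland itself were present on every array: Lalba, the milk protein alpha-lactalbumin, lay between 13.76 and 14.56, and Adipoq, the fat cell hormone adiponectin, between 12.88 and 13.70.

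Skeletal muscle is built of sarcomeres, in which myosin thick filaments slide along actin thin filaments anchored at Z discs. Calcium released from the sarcoplasmic reticulum binds troponin and starts contraction, and creatine kinase and glycolysis supply ATP. Fast glycolytic and slow oxidative fibres use different isoforms of these proteins. The inguinal gland of the rat lies under the skin, close to cutaneous and body wall muscles, and has no striated muscle of its own. Because whole tissue was measured, more muscle cells in a sample cannot be told apart from more RNA per muscle cell.

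Promoters of 4 of the genes are shown because the genes were high on the same arrays and muscle genes are known targets of a few shared factors: the MyoD family, which binds E-boxes (CANNTG), MEF2, and serum response factor, which binds the CArG box. Ckm, Acta1 and Myh4 are markers, and Myh7 is the myosin heavy chain of slow fibres. Each window holds the 250 bases before the annotated start, 5′ to 3′ on the gene's strand, from RefSeq on build GRCr8, at chr1:88189211-88189460 (plus strand) for Ckm, chr19:68784195-68784444 (minus) for Acta1, chr10:52421898-52422147 (plus) for Myh4 and chr15:32438195-32438444 (minus) for Myh7. Capitals mark matches, on either strand, to the E-box, the MEF2 consensus, the CArG box or TATAAA.
Ckm: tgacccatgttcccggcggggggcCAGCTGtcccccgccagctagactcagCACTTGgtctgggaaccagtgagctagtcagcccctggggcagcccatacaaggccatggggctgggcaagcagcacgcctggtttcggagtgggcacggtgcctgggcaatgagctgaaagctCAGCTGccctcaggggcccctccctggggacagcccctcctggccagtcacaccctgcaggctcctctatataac
Acta1: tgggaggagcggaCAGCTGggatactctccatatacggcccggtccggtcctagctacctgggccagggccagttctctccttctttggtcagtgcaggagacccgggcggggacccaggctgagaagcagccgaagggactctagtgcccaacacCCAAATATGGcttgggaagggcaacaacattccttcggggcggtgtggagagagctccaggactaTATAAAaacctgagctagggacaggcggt
Myh4: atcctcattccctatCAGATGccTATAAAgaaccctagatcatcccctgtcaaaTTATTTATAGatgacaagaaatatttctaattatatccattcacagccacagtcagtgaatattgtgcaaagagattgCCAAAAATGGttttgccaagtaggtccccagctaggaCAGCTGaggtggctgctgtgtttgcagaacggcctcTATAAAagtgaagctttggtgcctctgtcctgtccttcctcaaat
Myh7: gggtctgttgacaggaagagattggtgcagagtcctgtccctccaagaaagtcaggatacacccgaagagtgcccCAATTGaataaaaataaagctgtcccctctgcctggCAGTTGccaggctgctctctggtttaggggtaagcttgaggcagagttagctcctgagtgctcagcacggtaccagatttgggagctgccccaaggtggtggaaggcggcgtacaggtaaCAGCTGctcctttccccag

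The Ckm window held E-boxes at -226, -199 and -75 relative to the start, and the first and last of these read CAGCTG, one of the forms of CANNTG. In Acta1 a CAGCTG lay at -237, a CArG box at -94 and TATAAA at -29. Myh4 had E-boxes at -235 and -81, a CArG box at -118, a MEF2 match at -196 and TATAAA at -227 and -45, and a TATAAA match at -193 lay inside the MEF2 match. The Myh7 window showed E-boxes at -175, -139 and -19 and none of the other motifs. Of the 83 genes that passed the threshold as higher on the muscle-rich arrays in the comparison that follows, 67 matched a RefSeq window. E-boxes were found in 74.6% of these windows, against 65.2% of all 27457 rat windows of this length and 58.4% of the 11217 belonging to measured genes. CAGCTG was in 31.3%, against 11.9 and 12.5%, and the MEF2 consensus in 14.9%, against 3.07 and 1.52%. A CArG box was in 4.48% (3 of 67 windows, those of the markers Acta1 and Myh4 among them), against 1.501 and 1.20%. TATAAA was in 26.9%, against 13.1 and 8.10%. These shares describe letters in a window, not bound sites. The arrays were chosen on muscle transcript and the windows include those of markers, so the shares are no test.

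Acta1 read 13.12 on P7, 13.22 on P9 and 14.28 on H4. The muscle-poor arrays ran from 8.30 through a median of 9.49 to 11.43, and the controls, in replicate order, read 8.64, 11.27, 6.94, 10.68 and 11.59. No muscle-poor or control array reached the muscle-rich ones, and on H4 the transcript stood close to that array's highest probe set (14.55). Ckm read 11.85, 12.42 and 13.53 on P7, P9 and H4, against 6.71 to 10.12 (median 7.69) on the muscle-poor arrays and 6.37 to 10.001 in controls. Myh4 read 9.79, 10.19 and 12.21, against 4.81 to 8.35 (median 5.24) and 4.34 to 7.89. Tnnt3 read 11.10, 11.50 and 13.24, against 7.997 to 9.77 (median 8.75) and 8.38 to 9.68. In each of the 4 genes H4 was highest, followed by P9 and P7, and H3 was the highest muscle-poor array.

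**Figure D1:**
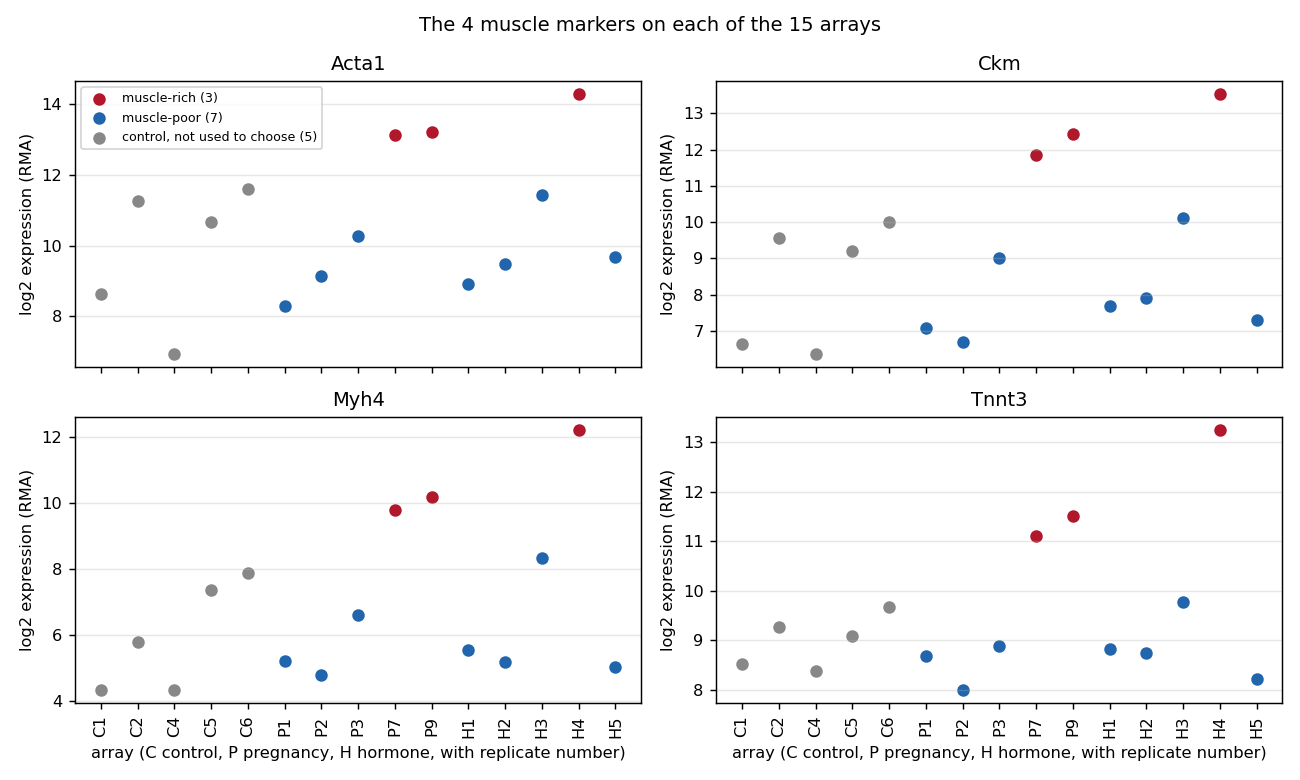
Log2 expression of Acta1, Ckm, Myh4 and Tnnt3 (vertical axes) on each of the 15 arrays (horizontal axes), each point 1 array of 1 rat, coloured by set. P7, P9 and H4 lie above the other 12 arrays in all 4 panels, and H3, P3 and 3 of the controls rise above the lowest arrays.

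The marker level of an array is the mean log2 value of the 4 genes. Just inside the choice lay P7 at 11.47 and just outside it H3 at 9.92, a gap of 1.55, while the muscle-poor arrays themselves reached from 7.16 (P2) to H3. P9 stood at 11.83 and H4 at 13.31. Controls reached from 6.51 (C4) to 9.79 (C6), a range of 3.28. Muscle transcript therefore varied among arrays of both sets, and the muscle-poor arrays were not free of it: Acta1 and Tnnt3 were called present on all 7. Ckm was called present on 4 of the 7 and Myh4 on 3.

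The difference between the sets was fitted for every probe set with treatment group as covariate. At an adjusted p under 0.05 over 31042 probe sets, 106 were higher on the muscle-rich arrays (0.341% of those tested) and 1 was lower (0.00322%). Of the 106, 105 had all 3 muscle-rich arrays above all 7 muscle-poor ones. They name 83 genes, and 10 more of the 107 probe sets name no gene. Counted on 1 probe set per gene, the brightest, 0.478% of 14235 genes passed as higher. On that count 1.9% of genes had all muscle-rich arrays above the muscle-poor ones and 2.12% had them all below. The count of 107 depended on single arrays: it was 49 without P1, 63 without H2 and 64 without H3, and 122 without P7. With H4 left out it was 100, of which 77 were among the 107.

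The largest differences were those of genes for the sarcomere, calcium handling and muscle energy supply. At the brightest probe set of each gene the 15 largest, in order of size, were Myh4, Ckm, Myl11, Tnnc2, Atp2a1, Actn3, Casq1, Hjv, Pvalb, Trdn, Myl1, Acta1, Tnni2, Neb and Pgam2, from 5.13 (SE 0.73) to 3.77 (SE 0.45) log2 units. All but 1 of these genes belong to the muscle lists, and that 1, Hjv (hemojuvelin, a regulator of iron balance made in liver and muscle), was 4.35 higher (SE 0.44). Less bright probe sets of Myh2 (4.50), Tpm1 (4.49), Pygm (4.41) and Tpm2 (4.14) also lay in that range. Over the 10 muscle lists, 50 of 184 measured genes passed as higher and none as lower, against the 0.478% of all genes given above. These counts, like those of each list that follows, take a gene at its brightest probe set, and 58 genes of the muscle lists passed at any of their probe sets. In 76 of the 184 the muscle-rich arrays all lay above the muscle-poor ones and in 1 all below. The median difference was 0.33 over these genes and -0.01 over all genes. Since the arrays were chosen on muscle transcript, nothing is read from these counts beyond which muscle genes were seen and which were not.

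**Figure D2:**
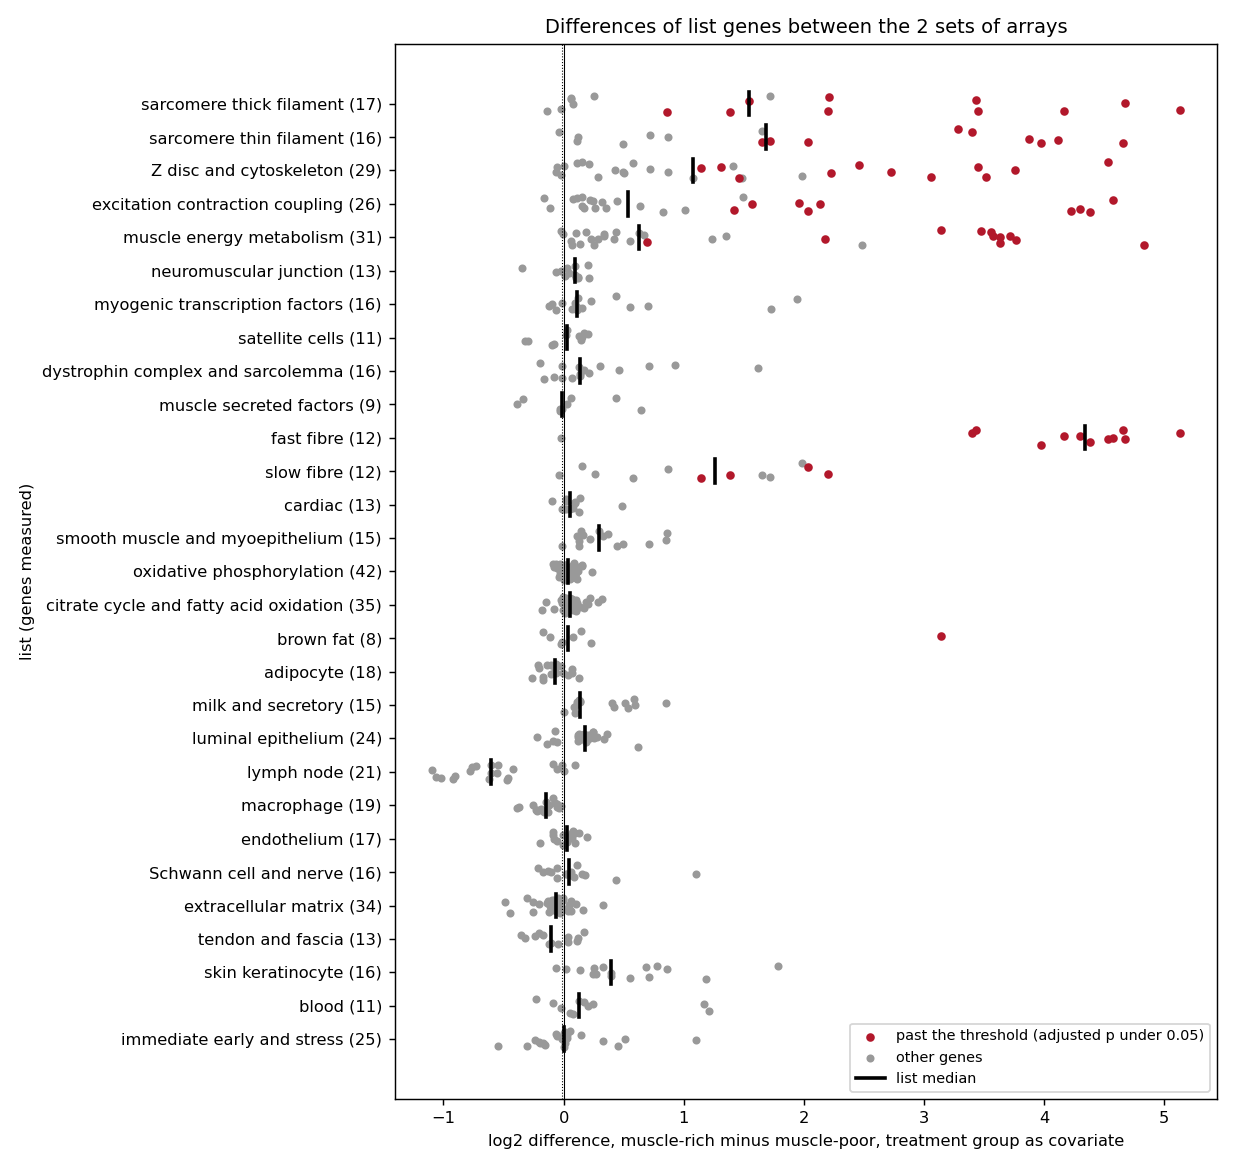
Log2 difference, muscle-rich minus muscle-poor (horizontal axis), of each measured gene of the 29 lists (vertical axis, number of genes in parentheses). Red points passed an adjusted p of 0.05, short black bars are list medians, and the dotted line is the median of all genes. Red points lie almost only in the sarcomere, Z disc, calcium, energy and fibre lists, and the fast fibre median stands at 4.34.

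Thick filament genes had a median difference of 1.54, and 10 of 17 passed. Myl11, the regulatory light chain of fast myosin, read 12.07 on P7, 12.35 on P9 and 13.76 on H4, against 6.86 to 10.55 (median 8.19) on the muscle-poor arrays, a difference of 4.68 (SE 0.65). Ttn, the giant spring titin, read 8.64, 9.27 and 10.94, against 5.85 to 7.40 (median 6.06). Neither gene overlapped between the sets. Myl1, an essential light chain, was 4.17 higher (SE 0.48), and Mybpc2, fast myosin-binding protein C, 3.44 (SE 0.42). Myh3 and Myh8, the embryonic and perinatal myosin heavy chains, were called present on none of the 15 arrays.

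Thin filament genes had a median of 1.69, with 9 of 16 past the threshold. Tnnc2, the calcium-binding troponin of fast fibres, read 11.70, 12.07 and 13.62 on P7, P9 and H4, against 6.65 to 10.40 (median 7.78), a difference of 4.65 (SE 0.67). Neb, nebulin, which runs the length of the thin filament, read 6.89, 7.69 and 10.18 against 4.18 to 5.46 (median 4.43). H4 stood well above P7 and P9 in nebulin. Tnni2, the inhibitory troponin of fast fibres, was 3.97 higher (SE 0.44). At their brightest probe sets the tropomyosins Tpm1 (0.12, SE 0.18), Tpm2 (0.11, SE 0.26) and Tpm3 (-0.04, SE 0.07) did not pass. Other probe sets of the first pair did, with 1 for Tpm1 4.49 higher (SE 0.46) and 1 for Tpm2 4.14 higher (SE 0.40), so the probe sets of these genes disagree.

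Z disc and cytoskeletal genes had a median of 1.07, and 11 of 29 passed. Actn3, the alpha-actinin of fast fibres, was 4.53 higher (SE 0.63). Myoz1, the fast calcineurin-binding protein calsarcin 2, was 3.76 higher (SE 0.39), Tcap, telethonin, which caps titin, 3.51 (SE 0.36), and Myot, myotilin, 3.45 (SE 0.39). Tcap read 9.55, 9.96 and 11.85 on P7, P9 and H4 and 6.60 to 8.02 (median 7.03) on the muscle-poor arrays, with no overlap. Des, desmin, also made by smooth muscle, was 1.49 higher (SE 0.30) and did not pass.

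Genes of excitation contraction coupling had a median of 0.54, with 9 of 26 past the threshold. Atp2a1, the calcium pump of the fast sarcoplasmic reticulum, read 11.75, 12.36 and 13.56 against 7.29 to 9.71 (median 7.76), a difference of 4.58 (SE 0.54). Casq1, the calcium store calsequestrin, was 4.38 higher (SE 0.45), Trdn, triadin, 4.23 (SE 0.42), and Pvalb, the calcium buffer parvalbumin, 4.30 (SE 0.54). Ryr1, the release channel, read 7.97, 8.34 and 9.75 and was called present on all 3 muscle-rich arrays and on none of the muscle-poor ones (6.50 to 7.10), where its level was not told from background. Atp2a2, the calcium pump of slow muscle and of most other cells, differed by 0.15 (SE 0.06) and did not pass.

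Energy genes had a median of 0.63, and 11 of 31 passed. Pgam2, muscle phosphoglycerate mutase, was 3.77 higher (SE 0.45), Cox6a2, a muscle subunit of cytochrome c oxidase, 3.72 (SE 0.45), and Pygm, muscle glycogen phosphorylase, 3.64 (SE 0.39). Other Pygm probe sets were 4.41 (SE 0.47) and 3.15 (SE 0.33) higher. Mb, the oxygen store myoglobin, read 8.17 on P7, 8.73 on P9 and 11.07 on H4 and was called present on no muscle-poor array (5.55 to 6.92). Enzymes that all cells use differed less. Gapdh read 13.00, 12.90 and 13.25, against 12.49 to 12.71 (median 12.63), and Aldoa differed by 0.55 (SE 0.11). Neither passed, though the Gapdh values of the 2 sets do not overlap.

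Several muscle lists held no gene past the threshold. The neuromuscular junction list had a median of 0.09 (0 of 13), the satellite cell list 0.03 (0 of 11), the list of dystrophin complex and sarcolemma genes 0.14 (0 of 16) and that of factors secreted by muscle -0.01 (0 of 9). In the second of these, Cdh15, a cadherin of muscle precursors, differed by 0.15 (SE 0.08). Chrne, the adult acetylcholine receptor subunit, had all 3 muscle-rich arrays below the 7 others and a present call on 1 of the 7 and on none of the 3. Trim72, a membrane repair protein, read 6.63 on P7, 6.75 on P9 and 8.87 on H4, against 5.85 to 6.07 (median 5.98), but did not pass (difference 1.61, SE 0.35). Its 3 muscle-rich values lie above all the others, and H4 lies far above P7 and P9.

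Myogenic transcription factors had a median of 0.11, and 0 of 16 passed. Myf6, the MyoD family member most abundant in mature fibres, read 4.38, 5.04 and 7.12 on P7, P9 and H4, against 3.41 to 3.91 (median 3.73), with present calls on all 3 muscle-rich arrays and no other array. Myod1 read 4.16 and 4.13 on P7 and P9, 5.59 on H4 and 3.88 to 4.07 on the muscle-poor arrays, and was called present on H4 alone of the muscle-rich arrays and on no muscle-poor one. Other members, among them Myog (0.15, SE 0.10), Mef2c (0.07, SE 0.16), Mef2a (-0.07, SE 0.10), Mef2d (0.23, SE 0.08), Six4 (0.56, SE 0.16), Sox6 (0.09, SE 0.11), Tbx15 (-0.10, SE 0.17) and Nfix (0.11, SE 0.12), did not pass either, nor did Tead4, Pitx3, Prox1 and Vgll2.

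Fast fibre isoforms stood far above slow ones in size of difference. Myh4 and Tnnt3 are 2 of the 12 fast genes and were among the markers that chose the arrays, while no slow gene was, so the fast difference is in part fixed by the choice. The fast list had a median of 4.34, and 11 of 12 genes passed, while the slow list had a median of 1.26 and 4 of 12 passed, namely Myl2, Tnnc1, Myh7 and Csrp3. Without Myh4 and Tnnt3 the fast median was also 4.34, and 9 of 10 passed. On the muscle-poor arrays 11 of the 12 fast genes had a present call, but only 5 of the 12 slow ones. Differences of the other slow genes are taken from levels not told from background, so the 2 medians are not a like comparison. Both lists share members with the 10 muscle lists. The exception among the fast genes was Myh2, the type IIA heavy chain: its brightest probe set was called present on no array and read 6.45 to 6.72 on the 10 arrays. The other Myh2 probe sets were 4.50 (SE 0.48) and 3.68 (SE 0.47) higher. Myosin heavy chain genes are near copies of one another, so which of them a probe set measures is uncertain, Myh4 included. A second Myh4 probe set was called present on no array.

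The slow genes that passed, Myl2, Tnnc1, Myh7 and Csrp3, were highest on H4. Myl2, the regulatory light chain of slow and cardiac muscle, read 6.52 on P7, 6.98 on P9 and 8.93 on H4, against 5.25 to 5.59 (median 5.40). Tnnc1, slow and cardiac troponin C, read 7.17, 7.62 and 9.72, against 5.86 to 6.62 (median 6.36). Myh7 read 7.62, 7.87 and 9.33, against 6.89 to 7.19 (median 6.96). In all 3 genes no muscle-rich array overlaps the muscle-poor ones, and H4 exceeds P9 by more than P9 exceeds P7. Myl3, the slow essential light chain (difference 1.72, SE 0.39), Tnnt1, slow troponin T (1.65, SE 0.50), and Myoz2, slow calsarcin (1.99, SE 0.41), did not pass. Tnni1, slow troponin I, did not pass at its brightest probe set (0.87, SE 0.22) but did at another, which was 1.27 higher (SE 0.20). Tnnt1 was higher on the muscle-poor array H3 than on P7 (6.24) and P9 (5.87). Csrp3 and Ankrd2 were called present on none of the 10 arrays, so no size is given for them. Casq2 differed by 0.26 (SE 0.08) and did not pass. Atp2a2, the calcium pump of slow muscle and of most other cells, was not highest on H4, at 12.19 on P7 and 11.93 on H4.

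Relative to the muscle-poor mean of its own group, the fast list stood 3.56 higher (median over 12 genes) on P7, 3.97 on P9 and 5.15 on H4, and the same to 2 decimals over the 10 without Myh4 and Tnnt3. The slow list stood 0.65, 0.70 and 1.92 higher on the same arrays. Cardiac genes give a comparison, since the heart shares several slow isoforms: Myh6, Nppa, Nppb, Tnni3, Actc1, Myl4, Myl7, Mybpc3, Hcn4, Nkx2-5, Gata4, Tbx5 and Tnnt2 had a median of 0.05, and 0 of 13 passed. At the brightest probe set only 4 of the 13 were called present on any of the 10 arrays, while other probe sets of Actc1 and Gata4 had present calls in both sets. Tnnt2, cardiac troponin T, read 8.01 on P9 and 6.44 and 6.34 on P7 and H4, against 6.03 to 6.46 on the muscle-poor arrays.

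**Figure D3:**
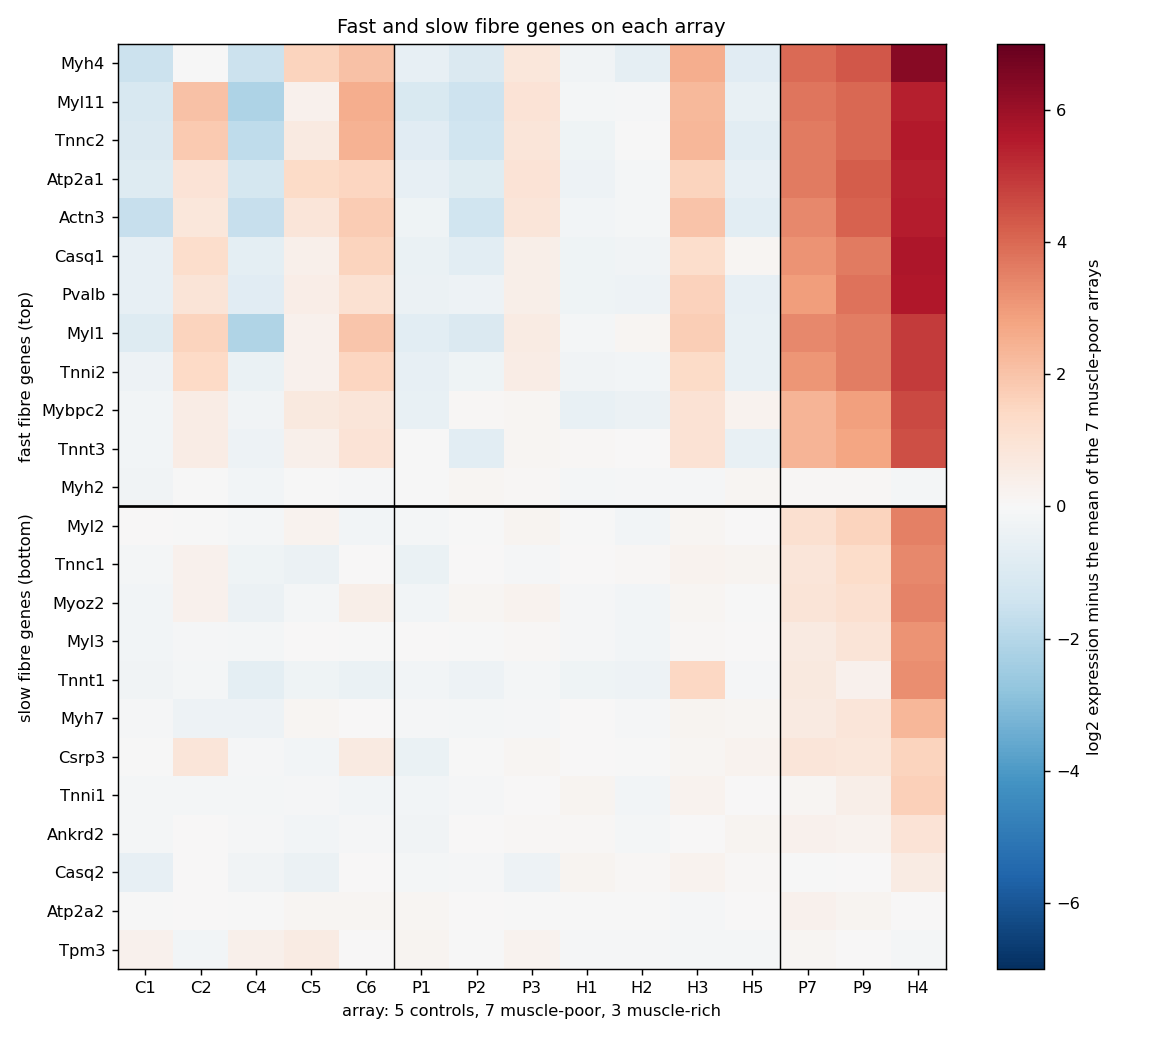
Log2 expression minus the mean of the 7 muscle-poor arrays (colour) for the 12 fast fibre genes (top) and 12 slow fibre genes (bottom) on the 15 arrays. Fast genes other than Myh2 are deep red on P7, P9 and H4 and pale red on H3, C2 and C6. Slow genes such as Myl2 and Tnnc1 are clearly red on H4, while others, such as Casq2, are pale there.

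The pregnancy arrays and the hormone arrays share no sample, so the difference can be taken in each group alone: mean of P7 and P9 minus mean of P1, P2 and P3, and H4 minus mean of H1, H2, H3 and H5. Over the 50 muscle list genes past the threshold the median was 2.63 in the pregnancy group and 4.48 in the hormone group, and the hormone value was the larger for all 50. Casq1 was 3.66 higher in the first and 5.46 in the second, and Cox8b 2.09 and 4.72. Across those 50 genes the differences of the 2 groups correlated at r = 0.909, across the 184 muscle list genes at 0.927 and across all 14235 genes at 0.601. These are correlations across genes that share arrays and were partly chosen by size, and genes are not independent replicates. P7, P9 and H4 were all chosen for high muscle transcript, so muscle genes had to be higher in both groups. For them the correlation is a description and no test of agreement. The hormone difference rests on the single array H4 and has no spread on its muscle-rich side.

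**Figure D4:**
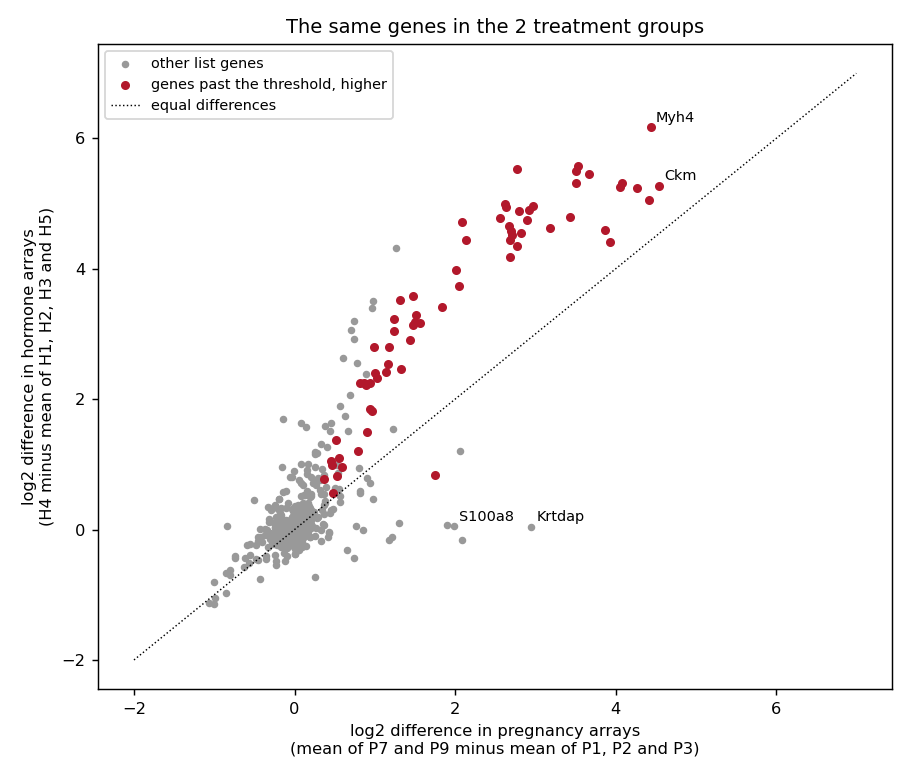
Log2 difference, muscle-rich minus muscle-poor, in the pregnancy arrays (horizontal axis) and in the hormone arrays (vertical axis), 1 point per list or named gene, red where the gene passed the threshold as higher. Most red points lie above the dotted line of equal differences, while Krtdap and S100a8 lie below it.

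Other tissues and cell types were looked at beside muscle. The lists of smooth muscle and myoepithelium (median 0.29), skin keratinocytes (0.39), milk and secretory genes (0.14), luminal epithelium (0.18) and blood (0.13) had medians above 0, and none of their genes passed. Medians near 0 were found for oxidative phosphorylation (0.03, 0 of 42), the citrate cycle and fatty acid oxidation (0.05, 0 of 35), endothelium (0.03, 0 of 17), Schwann cells and nerve (0.05, 0 of 16) and immediate early and stress genes (0.01, 0 of 25). Adipocyte genes (-0.07, 0 of 18), extracellular matrix (-0.06, 0 of 34), tendon and fascia (-0.10, 0 of 13), macrophages (-0.15, 0 of 19) and lymph node (-0.60, 0 of 21) lay below 0. The brown fat list had a median of 0.03, and 1 of 8 passed, Cox8b, a cytochrome c oxidase subunit of muscle and brown fat. Ucp1, the defining protein of brown fat, was called present on no array.

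Lymph node genes mostly had differences below 0, though P9 was not low in them. Of 21 measured lymph node genes 19 had a difference below 0, among them the T cell receptor chains Cd3d (-1.10, SE 0.53) and Cd3g (-1.06, SE 0.52). Over all genes 6630 of 14235 had a difference above 0. Genes of a list share arrays and are not independent replicates. The mean log2 level of the list was 7.47 to 9.14 on the muscle-rich, 7.70 to 10.34 on the muscle-poor and 7.50 to 10.70 on the control arrays, so the sets overlap. The list level of P9, at 9.14, lay above every muscle-poor array but P3, at 10.34. With that level added to the fit 66 probe sets passed, all of them among the 107.

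P9 stood apart from the other muscle-rich arrays in skin and neutrophil genes. Krtdap, a keratinocyte protein, read 10.95 on P9, 5.58 on P7 and 5.41 on H4, against 5.08 to 5.51 on the muscle-poor arrays. S100a8, a calcium-binding protein of neutrophils and stressed keratinocytes, read 9.65, 5.65 and 5.68, against 5.33 to 5.89. Only P9 was high in either. The skin list had 15 of 16 genes with a difference above 0, and its level relative to the 15 arrays was 1.02 on P9 and 0.02 to 0.20 on the other muscle-rich arrays, against -0.38 to 0.01 on the muscle-poor and -0.29 to 0.29 on the control arrays. Krt10 had a difference of -0.07 (SE 0.27). The part of skin and lymph node transcripts in the other differences was not tested.

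Of the 84 genes past the threshold 26 stood in no list, and they are named here after their values were seen. Apobec2, a muscle member of the cytidine deaminase family, was 3.38 higher (SE 0.35), Sh3bgr 2.80 (SE 0.42) and Dhrs7c, a dehydrogenase of the sarcoplasmic reticulum, 2.32 (SE 0.35). Eef1a2, the translation elongation factor of muscle and neurons, was 1.78 higher (SE 0.19), Rpl3l, the muscle paralog of a ribosomal protein, 1.72 (SE 0.29), and Abra, an actin-binding protein of striated muscle, 1.31 (SE 0.16). Fitm1 (2.73, SE 0.38), a lipid droplet protein, Mypn (2.20, SE 0.32), the sarcomere protein myopalladin, Ank1 (2.14, SE 0.33), the membrane adaptor ankyrin 1, and Hhatl (1.64, SE 0.27) passed at a probe set other than their brightest one, which did not pass, as did Asb5, Qsox1 and Rcbtb1. Txlnb, Rtn2, Smtnl1, Asb11, Asb5, Tuba8, Ky, Usp13, Rcbtb1, Macrod1 and Qsox1 were 0.53 to 1.83 higher. Qsox1 was the 1 higher probe set whose sets overlap, and Hspb3 and Lgi2 passed without a present call on the 10 arrays.

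A few of the 26 did not follow the order of muscle content. Slc28a3, a nucleoside transporter, read 9.90 on P7, 9.58 on P9 and 8.33 on H4, against 7.02 to 8.09 (median 7.84), so that H4, the array richest in muscle, was the lowest of the 3. Angptl1, an angiopoietin-like secreted protein, was the only probe set past the threshold as lower, at -0.49 (SE 0.08), and read 9.93, 10.10 and 10.74 against 10.44 to 11.32 (median 11.06). Its sets overlap, since H4 lies above P3, the lowest muscle-poor array.

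The controls gave the test that the choice of arrays had not used. For each probe set a slope was fitted on the marker level of the 5 controls, in log2 units per log2 unit of marker level, with the 4 marker genes left out of the counts. Of 31036 probe sets 0 passed limma's adjusted p of 0.05 (0%), and the smallest adjusted p was 0.130. At an unadjusted p under 0.05 there were 2900 probe sets. On 1 probe set per gene, 5.59% of 14231 genes had a slope above 0 and 3.83% a slope below 0 at that level. With C5 left out, 1555 probe sets passed, 556 of them with a slope above 0. In the remaining 4 controls the marker level runs opposite to the lymph node level, at 7.04, 8.98, 6.51 and 9.79 against 10.54, 7.50, 10.70 and 7.57, and the part of each was not tested. With the fast fibre level in place of the marker level 1 probe set passed. With the lymph node level added to all 5 controls 0 passed.

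Single muscle genes had large slopes in the controls without passing the correction. Actn3 read 6.41, 8.82, 6.40, 8.89 and 9.78 on C1, C2, C4, C5 and C6, with a slope of 1.08 (SE 0.07, limma's adjusted p 0.130). Atp2a1 read 7.22, 9.10, 6.89, 9.47 and 9.63, with a slope of 0.91 (SE 0.06, limma's adjusted p 0.130). Both were lowest on C4 and highest on C6, as was the marker level. Myl11 had a slope of 1.32 (SE 0.21, limma's adjusted p 0.450), Ttn 0.45 (SE 0.04, limma's adjusted p 0.265) and Hjv 0.69 (SE 0.08, limma's adjusted p 0.426). Slow isoforms had small slopes: Myl2 0.01 (SE 0.06), Tnnc1 0.07 (SE 0.08) and Myh7 0.09 (SE 0.07), with limma's adjusted p of 0.980, 0.835 and 0.772. Myl2 and Myh7 were called present on no control, so their slopes are of values not told from background. Tnnc1 was called present on all 5 controls.

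Of the 50 muscle list genes past the threshold in the 10 arrays, 46 are not markers. In the controls 45 of these 46 had a slope above 0, 33 of them at an unadjusted p under 0.05 (5.59% of all genes), with a median slope of 0.26. Over all genes 8131 of 14231 slopes were above 0, with a median of 0.01. Across the 46 genes the difference in the 10 arrays and the slope in the controls, which share no array, correlated at r = 0.783, and across all genes at 0.458. For the 10 fast fibre genes other than markers the median slope was 0.79 and 9 reached an unadjusted p under 0.05, while for the 12 slow fibre genes the median was 0.05 and 1 reached it. The slow median includes genes not detected in the controls, among them Myl2 and Myh7, so the 2 medians are not a like comparison. Slopes above 0 were not particular to skeletal muscle genes. In the same controls they were found for 14 of 15 genes of smooth muscle and myoepithelium (median 0.27, 12 at an unadjusted p under 0.05), 24 of 24 of luminal epithelium (median 0.20, 14 at that level) and 14 of 15 of milk and secretion (median 0.16, 7 at that level). Lymph node genes ran the other way, with 2 of 21 above 0, a median of -0.90 and 7 below 0 at that level, and 1 of 18 adipocyte genes lay above 0. The part of these tissues in the slopes of muscle genes was not tested.

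**Figure D5:**
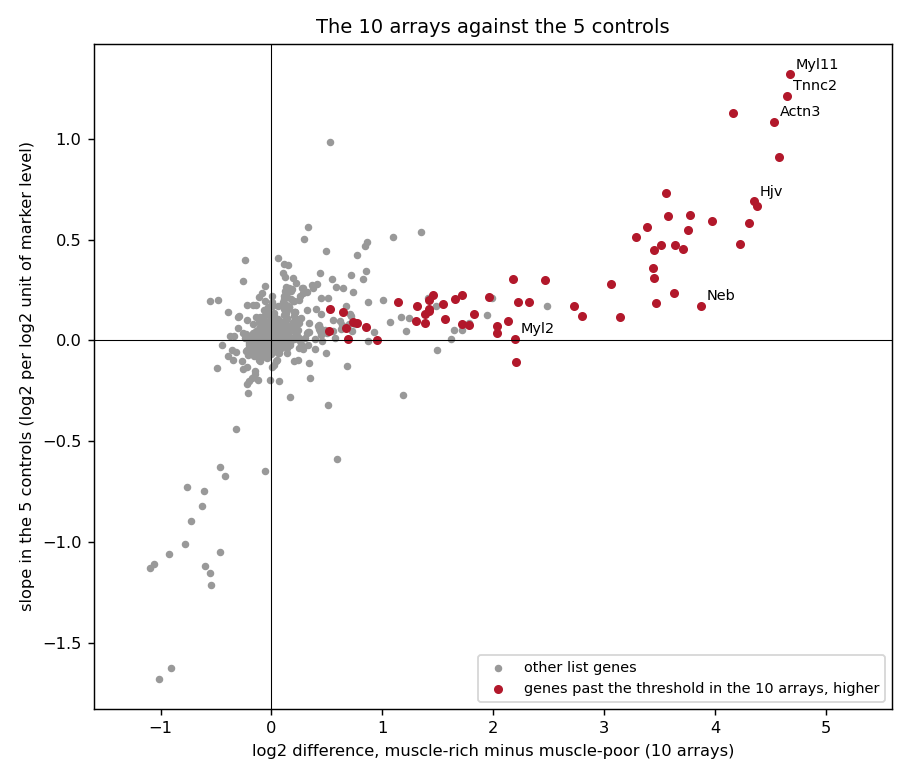
Log2 difference in the 10 pregnancy and hormone arrays (horizontal axis) and slope on the marker level in the 5 controls (vertical axis), 1 point per list or named gene, the 4 markers left out. Most genes past the threshold as higher (red) have slopes between 0, as for Myl2, and 1.32, as for Myl11, and lymph node genes form the grey points at the lower left.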

How the data were processed

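Gene expression was measured on 15 rat Affymetrix arrays. The authors deposited log2 values per probe set made by RMA, per the file headers, and a detection p-value with a present, marginal or absent call. The submitters' processing notes name GCOS, RMA, MAS5 and affy. No source used here gives their versions or the genome build. Both deposited tables held equal log2 values. Labels and column names gave the groups, and 15 per-sample columns of 5 arrays with no labelled sample were not used.

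Of 31099 probe sets 57 controls were left out. Of the 31042 tested, 23369 name 1 gene (14235 genes), with symbols updated by Entrez identifier against RefSeq and kept for 697, and 7673 name no single gene. In limma 3.58.1 (R 4.3.3) a model of treatment group and muscle set was fitted to the 10 arrays, with eBayes (7 residual and 2.95 prior degrees of freedom), and a slope on marker level to the 5 controls (3 and 2.63). Tests were two-sided with Benjamini-Hochberg adjustment. Both fits were tested on simulated data. A standard error is that of the fitted difference or slope. The number of arrays limits precision. Ratios against arrays without a present call are estimates, not bounds.

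The muscle-rich arrays and the 29 lists (588 symbols, 516 measured, 212 symbols in the 10 muscle lists) were chosen with earlier results of these data known. Each gene is taken at its brightest single-gene probe set. Named genes are the 4 markers, the 15 largest higher and up to 12 largest lower that pass without overlap (no lower one did), the 4 largest of each list that pass or else its 2 largest, and all fast fibre, slow fibre, cardiac and myogenic factor genes. Others are named as measured list members, and some genes under this rule are not reported. Alternatives left out single arrays, took each treatment group alone, all 15 arrays or no group term, and changed the scaling, filter, weights, prior, contrast and probe set rule.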

Additional observations from a re-analysis of the deposited data

Results flagged for a closer look

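For each list level and named gene the gap between the highest or lowest array of a treatment group and its nearest neighbour was divided by the range of the 5 arrays, and ratios above 0.710 were taken up. Of 393 groups of arrays 50 (12.7%) passed, where chance gives about 1 in 20 and most lay on H4, an array chosen for its muscle transcript. Set against all 393 groups, the cases on other arrays came to about that chance share, and are listed as a description. Genes share arrays, and P7 and P9 were chosen as well, so the chance share is only a rough guide. H4 stood above the other hormone arrays in muscle lists, with a ratio, for the sarcomere thick filament list 0.762, the sarcomere thin filament list 0.732, the Z disc and cytoskeleton list 0.854, the excitation contraction coupling list 0.791, the muscle energy metabolism list 0.854, the myogenic transcription factors list 0.714, the slow fibre list 0.844 and the brown fat list 0.838. The brown fat list holds Cox8b, which muscle also makes. Among single genes the ratio on H4 was, for Casq1 0.736, Hjv 0.775, Trdn 0.728, Neb 0.787, Myoz1 0.737, Tcap 0.787, Myot 0.853, Pygm 0.771, Myf6 0.864, Trim72 0.927 and Popdc3 0.886. It was, for Myl2 0.911, Tnnc1 0.922, Myh7 0.894, Csrp3 0.841, Cox8b 0.794, Myl3 0.915, Tnni1 0.767, Myoz2 0.914, Ankrd2 0.721, Myod1 0.904 and Vgll2 0.857.

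P9 stood above the other pregnancy arrays, with a ratio, for the cardiac list 0.716, the blood list 0.798, Tnnt2 0.988, Krtdap 0.916, Sprr1a 0.945, S100a8 0.891 and S100a9 0.732. The level of the blood list on P9 was 0.76 relative to the 15 arrays, against at most 0.03 on the other pregnancy arrays.

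The remaining cases lay on other arrays. They were Neb on C6 (high, 0.746), Rapsn on P3 (low, 0.798), Apln on P7 (high, 0.724), Atp5mc1 on C6 (high, 0.776), Ucp2 on C5 (high, 0.779), Aif1 on C5 (low, 0.738). The others were Egr2 on C6 (high, 0.792), Ogn on C5 (low, 0.760), Sprr1a on C1 (high, 0.911), Sprr1a on H2 (high, 0.933), Myh2 on P1 (low, 0.749), Pitx3 on H3 (low, 0.915) and Prox1 on C5 (low, 0.768). At these probe sets Myh2 and Pitx3 were called present on no array and Prox1 on 1 control alone, so their values were not told from background. Egr2, an immediate early and Schwann cell transcription factor, read 12.09 on C6 and at most 9.61 on the other controls. Apln, the peptide hormone apelin, read 10.55 on P7 and at most 8.65 on the other pregnancy arrays.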

How the results depend on the processing

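The count of 107 probe sets past the threshold became 164 with all 15 arrays, 214 with array weights, 173 in the hormone arrays alone, 10 in the pregnancy arrays alone, 62 with no treatment group and 66 with the lymph node level added. Leaving out single arrays moved it from 49 (without P1) to 122 (without P7), with 63 without H2 and 64 without H3. Centring, the present-call filter, the other variance prior, the marker slope and gene means gave 104, 104, 97, 118 and 80 (of 14235 genes). The median of the muscle lists was 0.549 in the hormone arrays alone and 0.190 to 0.451 when single arrays were left out, against 0.328. In the controls the count of 0 became 1 with the fast fibre level and ranged from 0 to 1555 when single controls were left out, the highest without C5. The cause of these changes was not tested. The lymph node alternative in the controls was chosen after seeing the data. Of 2147 recomputed gene differences 155 moved by more than the spread between arrays and 0 reversed. Of 609 list medians 23 moved and 0 reversed. Of 160 control slopes 15 passed the threshold, each without C5. These include the slopes of the 4 markers, which make up the level they were fitted on, so their passing is no test.

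No paired analysis was possible because each array came from a different rat and the labels pair none of them. With 3 muscle-rich arrays, 1 of them in the hormone group, and 5 controls, small differences cannot be told from the spread between rats, and probe sets with no present call carry no size.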
